A study of Mus musculus with 18 samples.

Results

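The 33 genes described here encode proteins of the lysosome other than the cathepsins: hydrolases that cut glycosaminoglycans, sphingolipids, glycogen, glycoproteins, lipids and proteins, the activators and transfer proteins that work with them, proteins of the lysosomal membrane, and the regulators Grn and Tfeb. They are a list of gene symbols whose rule uses no measured value, drawn up with earlier results of these data known. All 33 were found among the 18683 genes of the deposited table. By role, 7 break down glycosaminoglycans, 10 act on sphingolipids and gangliosides, 3 on glycogen and glycoproteins, 3 on cholesterol and other lipids and 2 on proteins or their palmitate groups, while 6 sit in the membrane and 2 act as regulators.

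The lysosome is the acidic compartment in which cells degrade material taken up from outside or delivered by autophagy. Each hydrolase removes a particular sugar, sulfate, lipid or peptide from the end of a chain, so that loss of a single enzyme leaves an undigested remnant and, in children, gives a storage disease that often damages the brain. The membrane proteins protect the compartment, carry products out of it and release calcium from it. Many of these genes carry short E-box sequences near their start sites that are bound by the transcription factor TFEB. In the brain, microglia, the resident macrophages, are rich in lysosomes and take up amyloid.

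The study measured RNA by bulk sequencing in prefrontal cortex and hippocampus of male mice on the C57BL/6J strain, in 6 groups of 3 libraries. The groups of each tissue were wildtype PBS and 5xFAD PBS, which received the buffer, and 5xFAD EV, which received extracellular vesicles isolated from human breast milk. All mice, the wildtype ones included, received 10 intravenous injections at intervals of 3 days between the ages of 5 and 6 months, and were perfused with PBS after behavioural tests. The 5xFAD line carries human transgenes with familial Alzheimer mutations, driven in neurons by Thy1 promoter sequence, and lays down amyloid plaques early. A wildtype group given vesicles is not among the samples used here, so the vesicle comparison is within 5xFAD mice. Nothing in the labels says that the 3 libraries of a group are separate mice. The p-values therefore speak only of the spread among these libraries, part or all of which may be technical.

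Each library held 26437852 to 36901744 reads in the listed genes. Thy1, whose promoter drives the transgenes, lay between 432.1 and 505.6 FPKM (fragments scaled by gene length and library size) in the 6 wildtype libraries and between 768.2 and 1415 in the 12 libraries of 5xFAD mice. App overlapped between the genotypes in prefrontal cortex and stood at 87.84 to 93.29 FPKM in 5xFAD PBS hippocampus against 100.1 to 102.5 in wildtype. The hippocampal neuron markers summed to 124.0 to 181.3 FPKM in hippocampus and 32.24 to 51.17 in prefrontal cortex. Several libraries stood apart in markers of the choroid plexus, the secretory tissue of the ventricles that borders the hippocampus. The 13 choroid plexus markers summed to 93.31 to 238.0 FPKM in the 3 wildtype hippocampal libraries, 3079 to 10046 in 5xFAD PBS, and 6633, 2667 and 266.7 in 5xFAD EV replicates 1, 2 and 3. In prefrontal cortex the sum was 65.02 to 85.58 FPKM in 8 libraries and 1061 in 5xFAD EV replicate 3, in which the neocortical neuron markers were also lowest (45.51 FPKM against 61.21 to 72.04 in the other prefrontal libraries).

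The lysosomal genes spanned a wide range of levels. FPKM is scaled by gene length, but the lengths used are not given, so the order of genes by level depends on them. In wildtype prefrontal cortex, Gusb had at least 394 reads per library at a mean of 1.31 FPKM. Naglu had at least 172 reads at 2.20 FPKM. Psap, the precursor of the saposins that present sphingolipids to their hydrolases, was highest in wildtype mice, at 714.6 ± 27.7 FPKM (SD, n = 3) in prefrontal cortex and 669.4 ± 44.3 in hippocampus. It was followed in prefrontal cortex by Lamp1, the most abundant lysosomal membrane glycoprotein here (194.5 ± 14.3 FPKM), by the heparan and dermatan sulfate sulfatase Ids (128.0 ± 6.05) and by the acid alpha-glucosidase Gaa (76.9 ± 4.77). The lowest was Tfeb, at 0.599 ± 0.159 FPKM, below the heparan sulfamidase Sgsh at 1.15 ± 0.0529 and the beta-glucuronidase Gusb at 1.31 ± 0.239. Members of 1 pathway differed widely in level. Among the glycosaminoglycan enzymes, Ids and the arylsulfatase Arsb (35.5 ± 0.514 FPKM) stood far above the other 5, which lay between 1.15 and 2.20 FPKM.

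**Figure D1:**
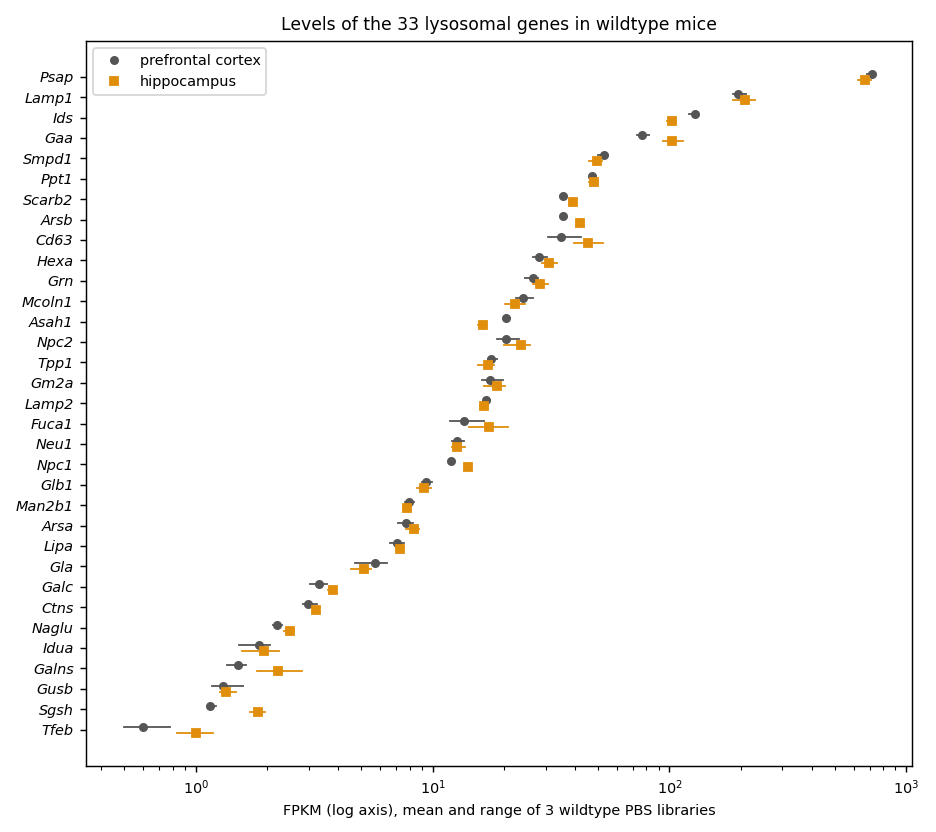
Mean FPKM (log axis) of each of the 33 genes in the 3 wildtype PBS libraries of prefrontal cortex (grey circles) and of hippocampus (orange squares), with bars from the lowest to the highest library. Psap is highest in both tissues and Tfeb lowest, and the tissues lie close together for most genes.

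The genes were well measured. Tfeb was the only one under 0.5 FPKM in any library, 20 of the 33 were at 10 FPKM or more in all 18 libraries, and the smallest number of reads behind any value was 132, for Tfeb. All 33 passed the filter on low values in every fit. The median coefficient of variation of the 33 genes was 4.63% to 9.82% over the 6 groups, against 8.41% to 11.9% for all genes tested. These sets were not matched for level, and the genes tested include many near 0.5 FPKM, so the gap does not show closer replicates.

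In wildtype mice, 5 of the 33 genes were higher and 2 lower in hippocampus than in prefrontal cortex, where 8.72% of all genes tested were called higher and 7.16% lower (limma on log2(FPKM + 0.5), with an adjusted p under 0.05 as the call here and throughout). On that log2 scale Sgsh was higher by 0.49 ± 0.14 (SE, adjusted p = 0.027), Tfeb by 0.46 ± 0.13 (0.027), the keratan and chondroitin sulfatase Galns by 0.42 ± 0.14 (0.042), Gaa by 0.41 ± 0.11 (0.02) and Arsb by 0.24 ± 0.07 (0.033). Ids fell by 0.32 on the same scale (SE 0.09, adjusted p = 0.016) and the acid ceramidase Asah1 by 0.31 (SE 0.10, adjusted p = 0.045). The total of 7 calls dropped to 0 without wildtype prefrontal replicate 1 or wildtype hippocampal replicate 3, to 1 without prefrontal replicate 3, to 2 without hippocampal replicate 2 and to 3 without prefrontal replicate 2, so these tissue differences rest on few libraries.

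Promoter sequence was available for 30 of the 33 genes, from RefSeq on mouse build GRCm38.p6. In windows from 250 bases before to 50 bases after each start, both strands were searched for 3 nested forms of the E-box and for a motif like that of the macrophage factor PU.1. The extended E-box, TCACGTG, was in 8 of the 30 (26.7%): Arsa, Gaa, Gla, Glb1, Lamp1, Mcoln1, Naglu and Sgsh. Over 27025 genes with a window, 4.29% held it. The core within it, CACGTG, was in the same 8 genes (8.09% of all genes). The palindrome that extends it, TCACGTGA, was in Gla and Mcoln1 (1.12%). The letters GAGGAAGT of the PU.1-like motif were in Gla and Gusb (3.69%). In Gusb the match lies after the start, at positions 37 to 44, so it is not among the 250 bases printed below. The 250 bases before the start are shown for 5 genes that the results below return to, with E-boxes in capitals: Naglu and Glb1, which hold 1 copy each and rose in 5xFAD hippocampus; Lamp1, which holds 4 copies, and Mcoln1, which holds 2 sites, neither of which passed the test; and Gusb, which had the largest rise and holds no E-box in this window.
Naglu: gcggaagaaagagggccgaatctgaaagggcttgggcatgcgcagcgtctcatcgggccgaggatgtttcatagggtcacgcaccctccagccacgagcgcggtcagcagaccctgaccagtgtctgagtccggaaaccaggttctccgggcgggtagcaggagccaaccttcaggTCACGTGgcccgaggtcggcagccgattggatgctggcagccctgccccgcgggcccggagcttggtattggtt
Glb1: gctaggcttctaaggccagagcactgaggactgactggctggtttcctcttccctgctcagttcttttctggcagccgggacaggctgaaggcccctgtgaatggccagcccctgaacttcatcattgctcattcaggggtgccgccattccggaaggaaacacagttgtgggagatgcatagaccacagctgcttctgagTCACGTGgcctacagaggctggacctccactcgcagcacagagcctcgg
Lamp1: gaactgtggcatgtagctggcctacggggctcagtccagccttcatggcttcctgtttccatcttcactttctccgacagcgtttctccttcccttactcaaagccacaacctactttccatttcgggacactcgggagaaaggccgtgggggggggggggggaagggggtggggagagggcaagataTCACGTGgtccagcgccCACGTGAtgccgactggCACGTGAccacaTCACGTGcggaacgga
Mcoln1: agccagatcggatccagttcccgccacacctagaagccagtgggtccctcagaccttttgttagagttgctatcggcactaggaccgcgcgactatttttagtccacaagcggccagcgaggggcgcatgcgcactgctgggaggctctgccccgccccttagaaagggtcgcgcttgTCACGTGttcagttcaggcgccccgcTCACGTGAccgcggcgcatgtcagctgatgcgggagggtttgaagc
Gusb: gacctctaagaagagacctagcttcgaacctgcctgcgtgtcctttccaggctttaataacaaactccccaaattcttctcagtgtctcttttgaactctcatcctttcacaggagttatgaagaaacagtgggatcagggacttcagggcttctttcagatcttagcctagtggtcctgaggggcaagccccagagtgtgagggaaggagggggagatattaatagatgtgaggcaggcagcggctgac
These stretches lie at chr11:101069844-101070093 (plus strand) for Naglu, chr9:114400828-114401077 (plus) for Glb1, chr8:13158911-13159160 (plus) for Lamp1, chr8:3500269-3500518 (plus) for Mcoln1 and chr5:130003050-130003299 (minus) for Gusb, each printed 5′ to 3′ on the gene's strand. Counting back from the start, the extended E-box lies at -74 to -68 in Naglu, at -49 to -43 in Glb1, and at -72 to -66 and -46 to -39 in Mcoln1, where the second site is the full palindrome. In Lamp1 the 4 copies lie within the last 62 bases. A match is a description of the letters and shows no binding.

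In prefrontal cortex, 6 of the 33 genes rose in 5xFAD PBS against wildtype PBS and none fell. Over all 13055 genes tested, 1.82% were called higher and 0.138% lower. The 6 came from different roles: the glycosaminoglycan enzymes Gusb and Naglu, the ganglioside enzyme Hexa, the glycoprotein enzyme Man2b1, the cholesterol carrier Npc2 and the regulator Grn. The ratios of their mean FPKM ran from 1.60 for Npc2 to 2.66 for Gusb. The median log2 fold change of the 33 genes was 0.14, against 0.02 over all genes, and 29 of 33 lay above 0, against 57.0% of all genes. At an unadjusted p under 0.05 there were 10 of the 33 genes and 8.16% of all genes. In 16 of the 33, every 5xFAD PBS library was above every wildtype library, as in 9.75% of all genes.

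Hippocampus showed more. There 13 of the 33 genes rose in 5xFAD PBS and none fell, where 4.19% of 13305 genes tested were called higher and 0.406% lower. The 13 were the 6 genes of prefrontal cortex and 7 more: the sphingolipid genes Glb1, Gm2a and Asah1, the acid lipase Lipa, the peptidase Tpp1 and the membrane proteins Lamp2 and Cd63. The ratios of mean FPKM ran from 1.43 for Tpp1 to 3.41 for Gusb. The median log2 fold change of the 33 was 0.30, against 0.02 over all genes, and 30 of 33 lay above 0, against 54.4%. At an unadjusted p under 0.05 there were 19 of the 33 genes and 18.8% of all genes, and in 20 of the 33 every 5xFAD PBS library was above every wildtype library, as in 16.5% of all genes.

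**Figure D2:**
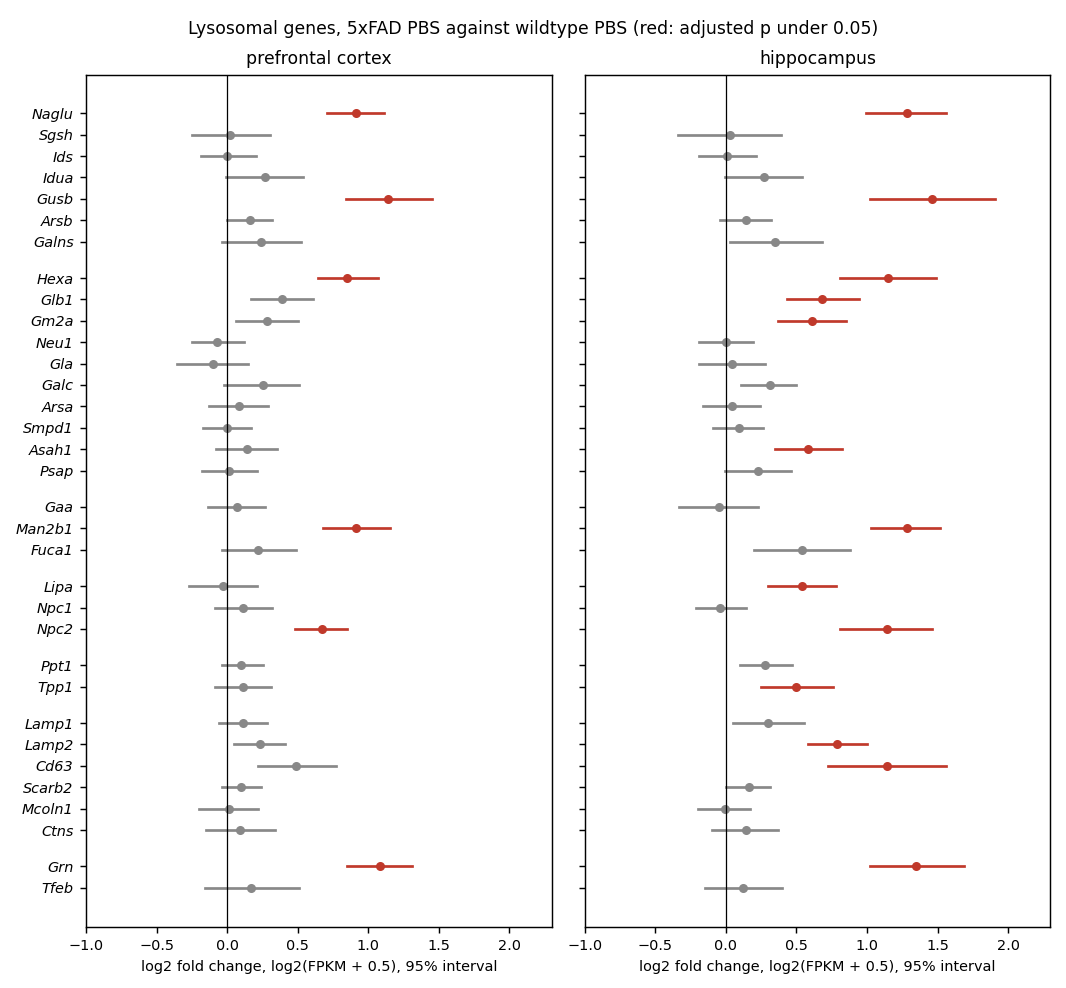
Log2 fold change of each gene on the log2(FPKM + 0.5) scale, 5xFAD PBS against wildtype PBS (3 libraries each), in prefrontal cortex (left) and hippocampus (right), with 95% intervals from limma. Genes are grouped by role, and red marks the 6 calls in prefrontal cortex and the 13 in hippocampus, all to the right of 0.

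By role, the glycosaminoglycan enzymes were divided. Gusb removes terminal glucuronic acid from heparan, dermatan and chondroitin sulfate. It measured 1.17, 1.59 and 1.17 FPKM in wildtype prefrontal cortex and 3.20, 3.39 and 3.86 in 5xFAD PBS, and 1.28, 1.27 and 1.49 against 4.74, 4.14 and 4.87 in hippocampus. Every 5xFAD library was above every wildtype one, and the log2 fold changes were 1.14 ± 0.14 (SE, adjusted p = 0.0014, limma) and 1.46 ± 0.20 (adjusted p = 0.003). Naglu, which removes N-acetylglucosamine from heparan sulfate, stood at 2.32, 2.16 and 2.12 FPKM against 4.50, 4.51 and 4.71 in prefrontal cortex, and at 2.37, 2.55 and 2.59 against 6.71, 7.35 and 6.27 in hippocampus. Its groups did not overlap in either tissue, with log2 fold changes of 0.91 ± 0.09 (adjusted p = 0.00043) and 1.28 ± 0.13 (adjusted p = 0.00075). The other 5 enzymes of this role, Sgsh, Ids, Idua, Arsb and Galns, did not pass the test in either tissue, although Sgsh and Naglu act on the same chain. Their log2 fold changes were between 0.00 for Ids and 0.27 for the iduronidase Idua in prefrontal cortex, and between 0.01 for Ids and 0.35 for Galns in hippocampus.

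Among the sphingolipid and ganglioside genes, Hexa rose in both tissues. Hexa encodes the alpha subunit of beta-hexosaminidase, which cuts GM2 ganglioside and is lost in Tay-Sachs disease. Its levels were 27.2, 30.5 and 26.5 FPKM in wildtype prefrontal cortex against 52.1, 51.9 and 49.3 in 5xFAD PBS, and 28.8, 30.7 and 33.5 against 73.9, 72.4 and 62.4 in hippocampus. Every 5xFAD value was above every wildtype value, with log2 fold changes of 0.85 ± 0.10 (adjusted p = 0.00095) and 1.15 ± 0.15 (adjusted p = 0.0027, limma). Gm2a, the activator that lifts GM2 out of the membrane for Hexa, rose in hippocampus by 0.61 ± 0.11 (adjusted p = 0.011), from 18.7 ± 1.94 to 28.7 ± 2.51 FPKM, and stood at 0.28 ± 0.10 (adjusted p = 0.37) in prefrontal cortex. Glb1, the beta-galactosidase that cuts GM1 ganglioside, rose in hippocampus by 0.68 ± 0.11 (adjusted p = 0.008), from 9.22 ± 0.625 to 15.2 ± 2.19 FPKM. In prefrontal cortex its 3 libraries did not overlap (9.04 to 9.91 against 12.4 to 12.6 FPKM), but 0.39 ± 0.10 did not pass (adjusted p = 0.11). Asah1, which splits ceramide, rose in hippocampus by 0.58 ± 0.10 (adjusted p = 0.011), from 16.4 ± 0.797 to 24.8 ± 0.683 FPKM. The other 6 genes of the role, Neu1, Gla, Galc, Arsa, Smpd1 and Psap, passed the test in neither tissue: the nearest was the galactosylceramidase Galc, at 0.31 ± 0.09 in hippocampus (adjusted p = 0.084). Psap, the most abundant member, stood at 0.01 ± 0.09 in prefrontal cortex and 0.23 ± 0.11 in hippocampus (adjusted p = 0.29).

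Of the 3 glycogen and glycoprotein enzymes, the lysosomal alpha-mannosidase Man2b1 rose in both tissues. It read 7.76, 7.67 and 8.36 FPKM in wildtype prefrontal cortex against 16.8, 13.98 and 15.4 in 5xFAD PBS, and 7.54, 7.89 and 8.04 against 22.5, 18.9 and 17.8 in hippocampus. The groups lay far apart in both tissues, at log2 fold changes of 0.91 ± 0.11 (adjusted p = 0.0011) and 1.28 ± 0.11 (adjusted p = 0.00048, limma). The fucosidase Fuca1 stood at 0.54 ± 0.15 in hippocampus without passing (adjusted p = 0.082). Gaa, whose loss causes Pompe disease, stood at 0.07 and -0.05.

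The lipid genes split in the same way. Npc2, the soluble carrier that hands cholesterol to the membrane protein Npc1, read 18.8, 23.1 and 19.4 FPKM in wildtype prefrontal cortex against 32.7, 33.2 and 31.9 in 5xFAD PBS. In hippocampus it read 20.0, 25.4 and 25.7 against 49.4, 60.8 and 47.7. The groups did not overlap in either tissue, and the log2 fold changes were 0.67 ± 0.08 (adjusted p = 0.0017) and 1.14 ± 0.15 (adjusted p = 0.0023, limma). Its partner Npc1 stood at 0.11 ± 0.09 and -0.04 ± 0.08 and passed in neither tissue. Lipa, which frees cholesterol from its esters, rose in hippocampus by 0.54 ± 0.11 (adjusted p = 0.02), from 7.29 ± 0.198 to 10.8 ± 1.14 FPKM, and stood at -0.03 ± 0.11 in prefrontal cortex. Of the protein enzymes, Tpp1, a tripeptidyl peptidase, rose in hippocampus by 0.50 ± 0.11 (adjusted p = 0.034), while the palmitoyl thioesterase Ppt1 stood at 0.28 ± 0.08 (adjusted p = 0.088). The calls of Lipa and Tpp1 were each lost in 5 of the 6 fits that left out 1 library, all but that without 5xFAD PBS replicate 3 (adjusted p of 0.056 to 0.083 for Lipa and 0.079 to 0.12 for Tpp1), and that of Asah1 without wildtype replicate 1 (0.05).

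Among the membrane proteins, Lamp2 and the tetraspanin Cd63 rose, in hippocampus. Lamp2, which protects the membrane and serves chaperone-mediated autophagy, read 15.8, 17.1 and 16.4 FPKM in wildtype against 27.5, 31.9 and 27.1 in 5xFAD PBS hippocampus. In prefrontal cortex it read 16.5, 17.5 and 16.5 against 19.2, 19.9 and 20.4. The groups did not overlap in either tissue, yet only the hippocampal difference of 0.79 ± 0.09 passed (adjusted p = 0.0015, limma), and the prefrontal one was 0.23 ± 0.08 (adjusted p = 0.36). Cd63 sits in late endosomes and lysosomes and is also a common marker of secreted vesicles. It read 39.4, 44.6 and 52.4 FPKM against 87.3, 130.2 and 88.0 in hippocampus, a log2 fold change of 1.14 ± 0.19 (adjusted p = 0.0077), with replicate 2 far above the other two. That library also had the highest choroid plexus sum, and without it the log2 fold change of Cd63 was 0.95. In prefrontal cortex Cd63 read 30.7, 42.5 and 31.1 against 45.6, 51.2 and 48.9, and 0.49 ± 0.12 did not pass (adjusted p = 0.1). Without wildtype replicate 2, the highest of its group, the difference was 0.64 and passed (adjusted p = 0.0055). Lamp1, Scarb2, Mcoln1 and Ctns, which encode a structural glycoprotein, the receptor that carries glucocerebrosidase to lysosomes, a calcium channel and the cystine exporter, passed in neither tissue, with log2 fold changes between -0.01 and 0.30.

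Of the 2 regulators, Grn rose in both tissues. Grn encodes progranulin, a secreted protein that is cut into granulins in the lysosome and supports its enzymes. It read 27.8, 27.1 and 24.7 FPKM in wildtype prefrontal cortex against 55.9, 58.9 and 55.1 in 5xFAD PBS, and 26.6, 28.0 and 30.7 against 74.1, 69.6 and 76.6 in hippocampus. The groups were widely separated, at log2 fold changes of 1.08 ± 0.10 (adjusted p = 0.00033) and 1.35 ± 0.15 (adjusted p = 0.0011, limma). Tfeb stood at 0.17 ± 0.15 in prefrontal cortex (adjusted p = 0.98) and 0.12 ± 0.12 in hippocampus (adjusted p = 0.64), with intervals from -0.16 to 0.51 and from -0.15 to 0.40. Of the 8 genes with an extended E-box, Naglu alone rose in prefrontal cortex and Naglu and Glb1 in hippocampus, while 5 and 10 of the 22 without it rose. The median log2 fold changes in hippocampus were 0.04 with the E-box and 0.41 without it, given as a description.

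**Figure D3:**
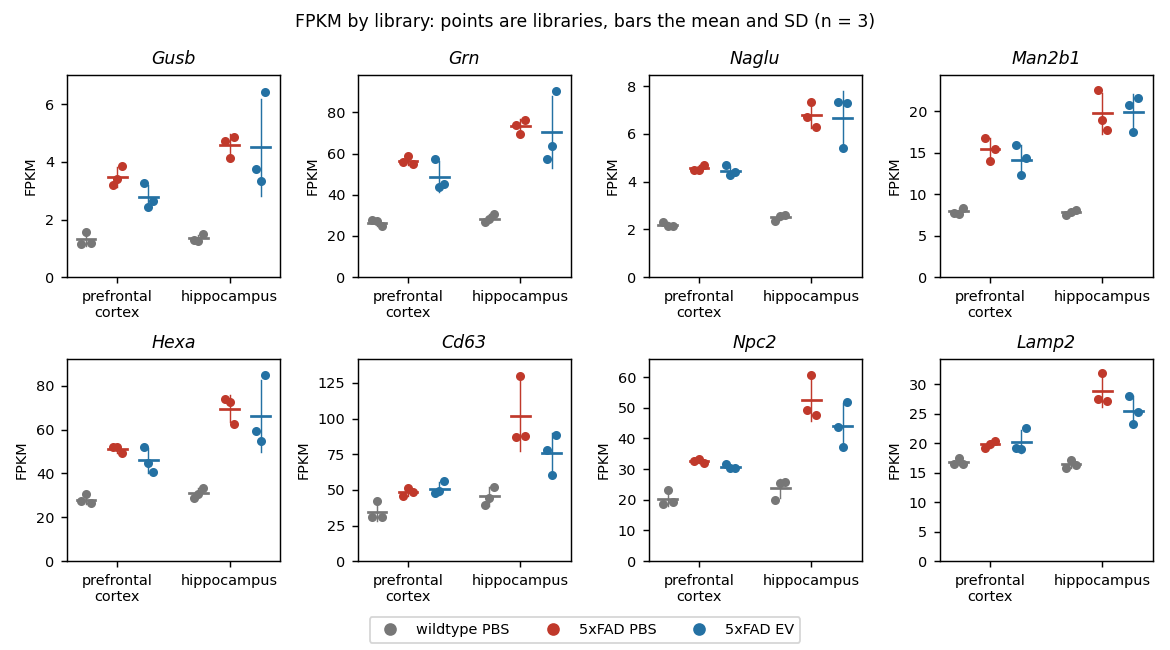
FPKM of the 8 genes with the largest called changes, by tissue and group (grey wildtype PBS, red 5xFAD PBS, blue 5xFAD EV). Each point is 1 library, the horizontal line is the mean and the vertical line the SD (n = 3). In every panel the 5xFAD PBS and 5xFAD EV points lie above the wildtype points of the same tissue, with the narrowest gaps for Lamp2 and Cd63 in prefrontal cortex.

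The estimated rise was larger in hippocampus for 27 of the 33 genes, against 52.4% of all genes, but no difference between tissues passed the test. The labels do not say whether the same mice gave both tissues, so the libraries were treated as independent. Tested as an interaction over all 18 libraries, 0 of the 33 genes and 0 of 13574 genes passed. At an unadjusted p under 0.05 there were 9 of the 33 genes and 5.80% of all genes; all 9 were larger in hippocampus. Lamp2 had the smallest p, with a difference of 0.56 ± 0.12 (95% interval 0.30 to 0.82, adjusted p = 0.53). Cd63 differed by 0.65 ± 0.24 (0.14 to 1.16) and Lipa by 0.57 ± 0.15 (0.25 to 0.89), both of which miss the threshold after adjustment (0.69 and 0.53). Comparing the tissues directly within 5xFAD PBS, 17 of the 33 genes were higher in hippocampus and 1, Ids, was lower, where 15.3% of all genes tested were called higher and 9.78% lower. The largest tissue differences were 1.04 ± 0.17 for Cd63 (adjusted p = 0.00037), 0.67 ± 0.12 for Npc2 (0.00094), 0.66 ± 0.14 for Fuca1 (0.0033) and 0.60 ± 0.11 for Lipa (0.00067). The 18 calls became 10 without 5xFAD PBS prefrontal replicate 2 or 3 and 11 without hippocampal replicate 2. In 5xFAD EV, 12 of the 33 were higher in hippocampus and none lower, where 8.60% of all genes were called higher, and 8.32% lower, and this count became 6 without EV prefrontal replicate 2 and 7 without EV hippocampal replicate 1 or 3.

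The vesicle comparison asked whether breast milk vesicles changed these levels in 5xFAD mice. In prefrontal cortex 0 of the 33 genes passed the test, as did 0 of all genes tested, with limma on FPKM or with voom on the recovered reads. At an unadjusted p under 0.05 there was 1 of the 33, where 4.72% of all genes were: Sgsh, at 1.34, 1.14 and 1.07 FPKM in 5xFAD PBS against 1.66, 1.56 and 2.11 in 5xFAD EV. These groups did not overlap, and the share of all genes that separate in this way is not given here. The log2 fold change of Sgsh, 0.43 ± 0.12, had an adjusted p of 0.82 (limma). The lowest was Gusb, at -0.28 ± 0.14 (adjusted p = 0.82), with 3.27, 2.43 and 2.65 FPKM in the EV libraries, of which replicate 1 lay within the 5xFAD PBS range. Grn followed at -0.22 ± 0.10 (adjusted p = 0.82), with 57.3, 43.9 and 45.2 FPKM. On the log2(FPKM + 0.5) scale all 33 intervals lay within -1 to 1 and 31 within -0.5 to 0.5.

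In hippocampus the vesicle comparison again gave 0 of the 33 genes and 0 of all genes by limma or voom. At an unadjusted p under 0.05 there was 1 of the 33, where 3.90% of all genes were: Lipa, at 11.6, 11.4 and 9.52 FPKM in 5xFAD PBS against 9.61, 7.78 and 9.18 in 5xFAD EV, a log2 fold change of -0.28 ± 0.11 with an adjusted p of 0.87. Replicate 3 of the PBS group lay within the EV range. Tfeb read 1.08, 1.22 and 1.09 FPKM in 5xFAD PBS against 0.888, 0.797 and 0.897 in 5xFAD EV, without overlap. How many of all genes separate in this way is not given here, so the separation is only a description. The log2 fold change of Tfeb was -0.26 ± 0.12 (adjusted p = 0.87, limma). Cd63 was lowest, at -0.42 ± 0.19 (95% interval -0.83 to 0.00, adjusted p = 0.87), with 78.0, 60.6 and 88.7 FPKM in the EV libraries. For the genes with the largest rises in 5xFAD hippocampus, the vesicle difference was small against its error: Naglu stood at -0.03 ± 0.13, Man2b1 at 0.01 ± 0.11, Gusb at -0.07 ± 0.20 and Grn at -0.09 ± 0.15. All 33 intervals lay within -1 to 1, and 27 within -0.5 to 0.5. Tested as an interaction, no difference of the vesicle effect between tissues passed, for the 33 genes or for all genes; at an unadjusted p under 0.05 there were 0 of the 33 and 5.01% of all genes.

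**Figure D4:**
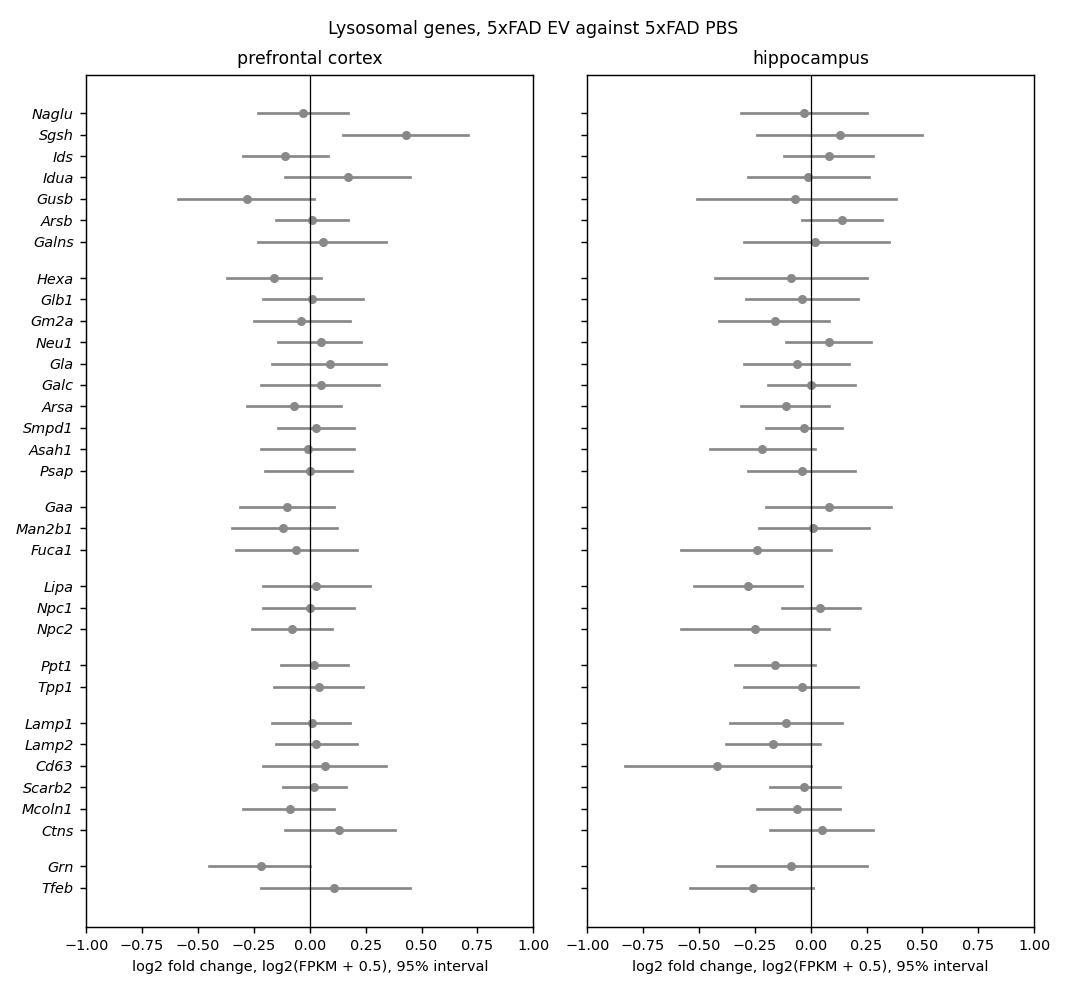
Log2 fold change of each gene on the log2(FPKM + 0.5) scale, 5xFAD EV against 5xFAD PBS (3 libraries each), in prefrontal cortex (left) and hippocampus (right), with 95% intervals from limma. No gene passed the test, and the estimates run from -0.28 to 0.43 in prefrontal cortex and from -0.42 to 0.14 in hippocampus.

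Set against wildtype, levels in the vesicle groups were also higher. The wildtype libraries are those already set against 5xFAD PBS, so the comparisons are not independent. In prefrontal cortex 6 of the 33 genes were higher in 5xFAD EV than in wildtype (1.40% of all genes were called higher and 0.115% lower): Naglu by 0.88 ± 0.09 (adjusted p = 0.00086), Gusb by 0.86 ± 0.14 (0.011), Grn by 0.86 ± 0.10 (0.0019), Man2b1 by 0.79 ± 0.11 (0.0039), Hexa by 0.69 ± 0.10 (0.0046) and Npc2 by 0.59 ± 0.08 (0.0052). The Gusb call was lost in 3 of 6 fits that left out 1 library: wildtype replicate 1 (adjusted p = 0.073), wildtype replicate 3 (0.052) and EV replicate 1 (0.051). With EV replicate 3, the library high in choroid plexus markers, left out, the count was again 6. In hippocampus 8 were higher (1.93% of all genes were called higher and 0.173% lower): Gusb by 1.39 ± 0.20 (0.0056), Man2b1 by 1.29 ± 0.11 (0.00052), Grn by 1.27 ± 0.15 (0.0022), Naglu by 1.25 ± 0.13 (0.0012), Hexa by 1.06 ± 0.15 (0.0063), Npc2 by 0.88 ± 0.15 (0.013), Glb1 by 0.64 ± 0.11 (0.018) and Lamp2 by 0.62 ± 0.09 (0.0085). These 8 were all among the 13 called without vesicles. Glb1 was lost without wildtype replicate 1 or 2 or EV replicate 1 or 3 (adjusted p of 0.053 to 0.076), and Npc2 without wildtype replicate 1 (0.053). Cd63, at 0.72 ± 0.19 (adjusted p = 0.11), and Gm2a, Asah1, Lipa and Tpp1 did not pass. Gusb, Grn, Naglu, Man2b1, Hexa and Npc2 were called in both tissues with and without vesicles, and 20 of the 33 were called in neither tissue of 5xFAD PBS mice.

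The remaining vesicle values of the 8 genes with the largest called changes show how the 3 libraries of a group spread. In prefrontal cortex 5xFAD EV, Naglu read 4.69, 4.27 and 4.42 FPKM and Man2b1 15.9, 12.3 and 14.4, and both ranges overlapped those of 5xFAD PBS. Hexa read 52.2, 44.7 and 40.8 FPKM there, with replicate 1 at the 5xFAD PBS level and the other two below it. Npc2, at 31.6, 30.4 and 30.5 FPKM, lay just below the lowest 5xFAD PBS library and far above the highest wildtype one. The membrane proteins overlapped 5xFAD PBS in that tissue, Lamp2 at 19.2, 19.0 and 22.5 FPKM and Cd63 at 47.6, 49.0 and 56.2, and both were highest in replicate 3. In hippocampus 5xFAD EV, Man2b1 read 20.8, 17.5 and 21.6 FPKM and Npc2 43.7, 37.2 and 51.7, again overlapping 5xFAD PBS and clear of wildtype. The spread among vesicle libraries was widest in hippocampus for Gusb, with a coefficient of variation of 37.3%, the highest of any of the 33 genes in any group.

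Markers of microglia moved with these rises. Of 14 microglial markers, 13 rose in 5xFAD PBS prefrontal cortex (median log2 fold change 0.96) and 13 in hippocampus (1.45), where 1.82% and 4.19% of all genes did. None of the 14 was at 0 in all libraries of a group. Their summed level was 267.7 to 348.6 FPKM in wildtype and 749.0 to 770.9 in 5xFAD PBS prefrontal cortex, and 266.1 to 317.1 against 1112 to 1169 in hippocampus. In bulk tissue more cells of a type and more RNA per cell cannot be told apart, and the part of microglia in the lysosomal rises was not tested. The 33 lysosomal genes together summed to 1531 to 1642 FPKM in wildtype and 1707 to 1750 in 5xFAD PBS prefrontal cortex, and to 1480 to 1677 against 1931 to 2122 in hippocampus; Psap alone makes up a large part of these sums. Among the hippocampal EV libraries the microglial sum was 844.3, 822.8 and 1500 FPKM. Gusb (3.75, 3.34 and 6.43 FPKM), Grn (57.3, 63.8 and 90.5) and Hexa (59.3, 54.6 and 85.0) were highest in the same replicate 3. Replicate 3 also had the highest FPKM total of this group (335314.4, 326767.7 and 365416.2). Its neuronal (2723, 3021 and 3321 FPKM), astrocyte (1190, 1183 and 1571) and oligodendrocyte (1538, 1448 and 1752) sums were highest too. A peak in replicate 3 was therefore not particular to microglia. The choroid plexus, meningeal fibroblast and hippocampal neuron sums were lowest there. In prefrontal EV libraries the microglial sum was 753.4, 620.1 and 545.7 FPKM, and Gusb, Grn and Hexa were highest in replicate 1, while Lamp2, Cd63, Tpp1 and Sgsh were highest in replicate 3. In the hippocampal EV libraries, Naglu (7.36, 5.40 and 7.30) and Lamp2 (28.1, 23.3 and 25.2) were highest in replicate 1.

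**Figure D5:**
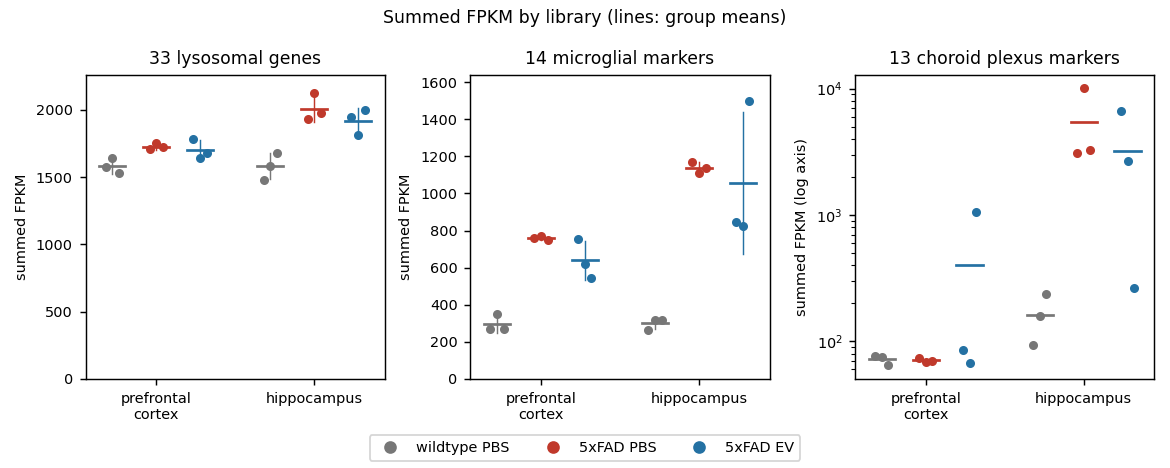
Summed FPKM per library of the 33 lysosomal genes (left), 14 microglial markers (middle) and 13 choroid plexus markers (right, log axis), by tissue and group (grey wildtype PBS, red 5xFAD PBS, blue 5xFAD EV); horizontal lines are group means, and vertical lines in the first 2 panels the SD (n = 3). Microglial sums of 5xFAD mice lie above those of wildtype mice in both tissues, and choroid plexus sums are high in 5 hippocampal libraries of 5xFAD mice and in 1 prefrontal EV library.

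In 5xFAD PBS against wildtype, of 10 astrocyte markers Gfap rose in prefrontal cortex and Gfap and Aqp4 in hippocampus, of 11 meningeal fibroblast markers Ogn rose in hippocampus, of 10 oligodendrocyte markers Mobp fell in hippocampus, and no neuronal or endothelial marker was called. Of all genes, 1.82% were called higher and 0.138% lower in prefrontal cortex, and 4.19% and 0.406% in hippocampus. In 5xFAD EV against wildtype, 11 of 14 microglial markers rose in prefrontal cortex and 13 in hippocampus, where 1.40% and 1.93% of all genes did. Gfap rose in both tissues (1.69 and 1.48), and in hippocampus Aqp4 rose (0.56) and Mobp fell (-0.49). The endothelial marker Slco1a4 rose in prefrontal cortex (0.62, adjusted p = 0.019, limma). The neocortical neuron marker Fezf2 fell by 0.60 in hippocampus (adjusted p = 0.049). Border macrophage markers, with no call, summed to 7.486 to 11.55 FPKM in 5xFAD PBS hippocampus against 2.728 to 5.459 in wildtype and 2.809 to 5.282 in 5xFAD EV. Meningeal fibroblast markers summed to 128.7 to 259.9 FPKM in 5xFAD PBS hippocampus, 80.97 to 145.1 in 5xFAD EV and 63.17 to 128.0 in wildtype. How far such differences in tissue content bear on the vesicle comparison was not tested.

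Choroid plexus markers moved with genotype in hippocampus, where 10 of 13 rose in 5xFAD PBS, against 4.19% of all genes, and the part of these markers in the lysosomal rises was not tested. Their sum in prefrontal cortex was 68.76 to 73.59 FPKM in 5xFAD PBS and 65.02 to 77.12 in wildtype. Without 5xFAD PBS hippocampal replicate 2, which had the highest choroid plexus sum, 11 of the 33 genes were called. A further fit kept 1 library of the hippocampal EV arm, replicate 3, picked after its choroid plexus sum of 266.7 FPKM was seen; it also had the highest microglial sum of all 18 libraries (1500 FPKM). With that lone library assumed to vary like the others, 7 of the 33 genes were higher than in wildtype and none lower, where 1.66% of all genes were called higher and 0.0152% lower: Gusb by 1.91, Grn by 1.65, Hexa by 1.44, Man2b1 by 1.41, Naglu by 1.38, Npc2 by 1.12 and Asah1 by 0.60. Glb1 and Lamp2 missed the threshold there at 0.71 (adjusted p = 0.12) and 0.60 (0.081). Cd63 read 88.7 FPKM in that library, above all 3 wildtype values, at 0.97 (adjusted p = 0.15).

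Lysosomal genes outside the 33 were read from 7 further lists, against 1.82% of all genes called higher in prefrontal cortex and 4.19% in hippocampus. Cathepsins and legumain, the proteases of the compartment, rose in 8 of 12 tested genes in prefrontal cortex and 9 of 12 in hippocampus, with medians of 0.53 and 0.92. Ctsd rose by 1.44 ± 0.10 and 1.95 ± 0.17, Ctsz by 1.35 ± 0.10 and 1.97 ± 0.19 and Ctss by 1.23 ± 0.12 and 1.84 ± 0.20 (adjusted p of 0.00096 or less, limma). Of the other hydrolases and cofactors, 5 of 23 and 8 of 24 rose, among them Pld4 (1.30 ± 0.14 in hippocampus) and Dnase2a (0.98 ± 0.16 and 1.26 ± 0.19). Of the other membrane proteins, 5 of 26 and 7 of 26 rose, led by the macrophage protein Cd68 (2.17 ± 0.16 and 2.73 ± 0.26). Of the proton pump subunits, 1 of 19 rose in each tissue, Tcirg1 (0.59 ± 0.12, adjusted p = 0.033, and 0.96 ± 0.16, adjusted p = 0.0074). None of 16 genes of enzyme sorting and maturation, 18 relatives of Tfeb and members of its mTORC1 control branch, or 20 autophagy genes was called in either tissue, counts that lie near those shares of all genes, as does that of the proton pump. In hippocampus, though, 7 of the 16 sorting genes had an unadjusted p under 0.05, against 18.8% of all genes. In 6 of all 16 sorting genes every 5xFAD PBS library was above every wildtype one (16.5% of all genes). In 3 of the 16 every 5xFAD PBS library was below, and the share of all genes that separate downward is not given here. The median log2 fold change of the 16 was 0.12. In prefrontal cortex 1 of the 16 had an unadjusted p under 0.05. None of these 7 lists held a called fall. The vesicle comparison gave no call in any of the lists.

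The 33 genes varied together only in part. Across the 18 libraries, 17 of them had a Pearson r above 0.8 with the mean of the others, led by Gm2a (0.98), Npc2 (0.96), Tpp1 (0.94) and Cd63 (0.94), while Gla (-0.17), Mcoln1 (-0.17) and Ids (-0.51) lay below 0. The genes outside the list most like its mean were Tcn2 (0.977), Ifnar2 (0.974), Cd9 (0.965), Ucp2 (0.965) and Msn (0.964). The libraries share genotype, tissue and depth, so these values only describe. Reads of overlapping genes may not be separable, since whether strand was used in counting is not stated in the labels or processing notes. In GENCODE annotation of GRCm38 the exons of 8 of the 33 overlap another listed gene. For the members that rose, these are Fam171a2 at Grn, Tmem202 at Hexa and Tmppe at Glb1. Fam171a2 stood at 0.03 in prefrontal cortex and fell by 0.41 in hippocampus (adjusted p = 0.049), against rises of Grn. Tmem202 was at 1.72 FPKM or less on average in each group compared, against 28.1 FPKM or more for Hexa, and its log2 fold changes were 0.28 (adjusted p = 0.88) and 0.69 (0.14). Tmppe stood at -0.06 and -0.24.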

How the data were processed

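The deposited table holds FPKM, made by the authors with fastp, HISAT2 and HTSeq on GRCm39 per the submitters' processing notes, which give no versions. What gene lengths, annotation and strand setting were used is not given in the sources used here. FPKM steps gave whole reads for 100% of genes (within 0.01 reads). Tests used log2(FPKM + 0.5) in limma 3.58.1 (R 4.3.3), with eBayes moderation and an intensity trend. Each tissue's 9 libraries were fitted together, with genes kept at 0.5 FPKM or more in 3 libraries or more (13055 genes in prefrontal cortex, 13305 in hippocampus), and tissue contrasts used all 18 (13574 genes). Tests were two-sided, Benjamini-Hochberg adjusted over all genes tested, and called under 0.05. The fold changes understate changes of low genes. The script was tested on simulated data.

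The members, lists and rules were chosen with earlier results of these data known. All 33 members are accounted for; values in every library are given for the 8 with the largest called change in 5xFAD PBS against wildtype, and other lists are named by up to 3 largest calls. Deviations from the group mean were compared between libraries of the same replicate number. All correlations were positive in 5xFAD PBS against wildtype prefrontal cortex (0.213, 0.509 and 0.169). They were also positive between the tissues of 5xFAD PBS (0.381, 0.495 and 0.0118). Libraries of unlike number reached 0.3 and 0.171 in these comparisons. Every other comparison held a negative value for the same number. The labels give no such pairing. Replicates differed beyond counting noise (chi-square per gene 10.1 to 75.7). Alternatives changed the pseudocount, filter, scaling, variance model, libraries fitted and replicate block, used voom on recovered reads, and left out each library.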

Additional observations from a re-analysis of the deposited data

How the results depend on the processing

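In the 6 comparisons within a tissue, the count of lysosomal genes called stayed within 1.5 times its reported value under every alternative run, and no called direction reversed. With the replicate number as a block, the counts were 6 in prefrontal cortex and 12 in hippocampus for 5xFAD PBS against wildtype (Tpp1 was lost); other within-tissue counts were the same under the block. Between the tissues the block gave 5 calls in wildtype, 18 in 5xFAD PBS and 13 in 5xFAD EV, and 0 for both interactions. Leaving out 1 library gave 6 to 7 calls in prefrontal cortex and 10 to 13 in hippocampus for 5xFAD PBS against wildtype, and 5 to 7 and 6 to 8 for 5xFAD EV against wildtype. In those fits of 5xFAD PBS against wildtype in prefrontal cortex, 141 to 218 of the 13055 genes tested were called. The vesicle comparison stayed at 0 throughout. Fitting all 18 libraries raised the hippocampal counts to 15 (adding Fuca1 and Ppt1) and 12. For this fit, the block and the other fits without 1 library, here and above, the share of all genes called is not given. Those counts therefore only describe. Hippocampus against prefrontal cortex was less stable: leaving out 1 library gave 0 to 6 calls in wildtype, 10 to 13 in 5xFAD PBS and 6 to 13 in 5xFAD EV, and the cause was not tested. The EV arm reduced to replicate 3 was chosen after seeing the data. The smallest read number behind a value was 132, for Tfeb, and how far depth limits the precision of the low genes was not tested.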
